A study of Mus musculus with 12 samples.

Results

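IL13RA2, IL13RA1 and IL4RA encode the receptor chains that bind IL-13 and IL-4, and their mRNA was measured in CT26, a mouse tumor cell line derived from a colon carcinoma. These 3 genes were taken by symbol from the 23636 symbols of the expression table, and all 3 were found and passed the filter on low values (0.2 TPM or more on average across the 12 libraries, where TPM is the level scaled for gene length and library size). The genes were chosen by measured values, in that IL13RA2 was selected on its rise in TPM with CX3CL1, over all 4 groups of libraries. Its values are therefore given as a description with no test. IL13RA1 averaged 0.138 TPM in untreated cells, so it passed the filter only through its higher groups.

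The study asked how the chemokine CX3CL1 (fractalkine) changes the expression program of tumor cells in the presence and absence of the inflammatory cytokine IFN-γ. The 4 groups, of 3 libraries each, were CT26 cells given nothing (no treatment), CX3CL1, IFN-γ or IFN-γ + CX3CL1. The study's text gives a dose of 2 µg/ml for CX3CL1 and one of 100 ng/ml for IFN-γ, over 8 hours. All 12 libraries came from this one line, with no change of genotype, and the labels call the 3 libraries of a group biological replicates without saying whether they were separate cultures, so p-values measure the spread between these libraries. CT26 is a single line grown alone, so it holds none of the T cells, mast cells or other leukocytes that make IL-4 and IL-13 in a tumor.

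As a check of the labels, IRF1, a transcription factor induced by IFN-γ, rose with IFN-γ by 2.31 on the log2(TPM + 1) scale (adjusted p = 0.000152, limma). CXCL1 rose with CX3CL1 by 6.17 (adjusted p = 6.87e-06, limma), a rise that the study had already reported from its RNA sequencing. It also rose with IFN-γ alone, by 3.22 (adjusted p = 0.000121, limma), so CXCL1 does not mark CX3CL1 only. The transcript of CX3CR1, the receptor of CX3CL1, averaged 0.0753 TPM without treatment and did not pass the filter. By flow cytometry, which measures protein and not RNA, the study reported high CX3CR1 expression on CT26 cells. Of 16 leukocyte markers, 7 were listed at 0 in all libraries, CD3E, CD4, CD8A and MS4A1 among them. Of the same list, CD68 averaged 11.7 TPM and GATA3 3.32 TPM without treatment. The epithelial marker EPCAM was also listed at 0, while the epithelial markers KRT18 and KRT20 averaged 45.3 and 12.8 TPM without treatment. The mesenchymal marker VIM averaged 4174 TPM without treatment. In that list ACTA2 averaged 0.0130 TPM, and CDH5 and KDR were listed at 0 without treatment. The summed level of the 10 epithelial markers ran from 51.2 to 64.7 TPM without treatment, 33.6 to 44.4 TPM with CX3CL1, 35.7 to 41.8 TPM with IFN-γ and 24.9 to 33.2 TPM with both agents, and the summed level of the 10 mesenchymal and endothelial markers ran from 4429 to 5699 TPM without treatment and from 2213 to 3679 TPM with both. The leukocyte sum ran from 11.8 to 21.7 TPM without treatment and from 18.1 to 34.8 TPM with both agents. These sums moved with the groups, and their part in the results was not tested. Replicates correlated at 0.994 to 0.998 (Pearson's r of log2(TPM + 1)), with the lowest value between CX3CL1 replicates 1 and 2.

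IL-13 first binds IL13RA1, which then pairs with IL4RA to form the type II receptor. IL-4 binds IL4RA, which pairs with either IL13RA1 or the common gamma chain IL2RG. JAK kinases bound to the chains phosphorylate STAT6, which drives the transcription of type 2 target genes. IL13RA2 binds IL-13 with high affinity and has a short cytoplasmic tail with no JAK binding site, so it is known as a decoy receptor that takes IL-13 away from the signaling receptor, although signaling through it has also been described.

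The 3 genes lie apart in the genome. In GENCODE vM21 (build GRCm38, which the submitters' processing notes name as mm10), IL13RA2 lay on chromosome X from 147383476 to 147429192 on the minus strand, with 14 exons in its longest transcript. IL13RA1 lay on the plus strand of chromosome X from 36112110 to 36171259, and IL4RA on the plus strand of chromosome 7 from 125552120 to 125579474, each with 11 exons in the longest transcript. No annotated gene overlapped IL13RA2 or IL13RA1, and 1 antisense gene, Gm44876, overlapped IL4RA. The library kit kept the strand, but whether counting used it is not given in the sources used here, so reads of IL4RA and of this antisense gene may not be separable.

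The RefSeq promoter sequences of the 3 genes (GRCm38.p6) are shown so that the bases next to each start can be set beside the levels that follow. Each runs 5′ to 3′ towards the transcription start, in the 250 bases before it. For IL4RA the last 151 of these bases are left out, because GENCODE places them inside a transcript. Capitals mark matches to the motifs searched on both strands, which were AP-1 (TGANTCA), STAT (TTCNNNGAA), STAT6 (TTCNNNNGAA), an ISRE core (GAAANNGAAA), C/EBP (TTNCNNNAA), TATAAA and the NF-kB consensus.
IL13RA2, chrX:147429193-147429442, minus strand: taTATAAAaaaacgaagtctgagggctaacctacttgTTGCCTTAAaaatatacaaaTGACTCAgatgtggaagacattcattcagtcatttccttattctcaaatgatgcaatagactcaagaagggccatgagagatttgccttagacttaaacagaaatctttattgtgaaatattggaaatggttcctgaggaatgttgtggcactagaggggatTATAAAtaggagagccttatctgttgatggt
IL13RA1, chrX:36111858-36112107, plus strand: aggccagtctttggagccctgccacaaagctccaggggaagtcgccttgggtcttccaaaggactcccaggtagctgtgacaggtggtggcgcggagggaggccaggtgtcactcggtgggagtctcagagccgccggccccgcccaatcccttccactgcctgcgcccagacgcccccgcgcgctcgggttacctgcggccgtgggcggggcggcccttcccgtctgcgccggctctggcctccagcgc
IL4RA, chr7:125552021-125552119, plus strand: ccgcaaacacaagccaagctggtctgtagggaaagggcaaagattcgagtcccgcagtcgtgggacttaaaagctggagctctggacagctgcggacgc

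In the IL13RA2 promoter, TATAAA was found with its middle 28 bases and 245 bases before the start, an AP-1 match (TGACTCA) 190 bases before it and a C/EBP match (TTGCCTTAA) 209 bases before it. No 2 of these matches overlapped. Of the 32536 distinct RefSeq promoter windows of 250 bases, 12.3% held TATAAA, 6.73% the AP-1 motif and 33.0% the C/EBP motif. None of the 7 motifs was found in the windows of IL13RA1 or IL4RA, and the STAT, STAT6, ISRE core and NF-kB motifs, held by 7.04%, 5.89%, 2.98% and 7.28% of all windows, were found in none of the 3. The G and C share was 36.0% for IL13RA2, 70.8% for IL13RA1 and 59.6% for IL4RA over 250 bases, against a median of 52.4% over all windows. The IL13RA2 window held 1 CpG, that of IL13RA1 21 and that of IL4RA 17. A match is a stretch of letters and does not show that a factor binds there.

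IL13RA2 was the member whose level differed most between groups. Without treatment it was measured at 0.408, 0.364 and 0.290 TPM in replicates 1, 2 and 3 (0.354 ± 0.0593, SD, n = 3). With CX3CL1 the 3 libraries held 5.63, 4.74 and 3.98 TPM (4.78 ± 0.829, SD, n = 3). With IFN-γ they held 3.88, 4.52 and 3.24 TPM (3.88 ± 0.641, SD, n = 3). All 6 libraries with a single agent lay above all untreated libraries, and those of CX3CL1 and IFN-γ overlapped each other. With IFN-γ + CX3CL1 the level was 20.9, 21.5 and 19.1 TPM (20.5 ± 1.28, SD, n = 3), above every library of the other 3 groups. By mean, the order of the groups was thus no treatment, IFN-γ, CX3CL1 and both agents, and only the libraries of the middle 2 overlapped. This order describes values on which the gene was chosen. The share of all genes that separate in this way was not counted. In a bulk library, more RNA per cell and more cells with the transcript cannot be told apart.

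**Figure D1:**
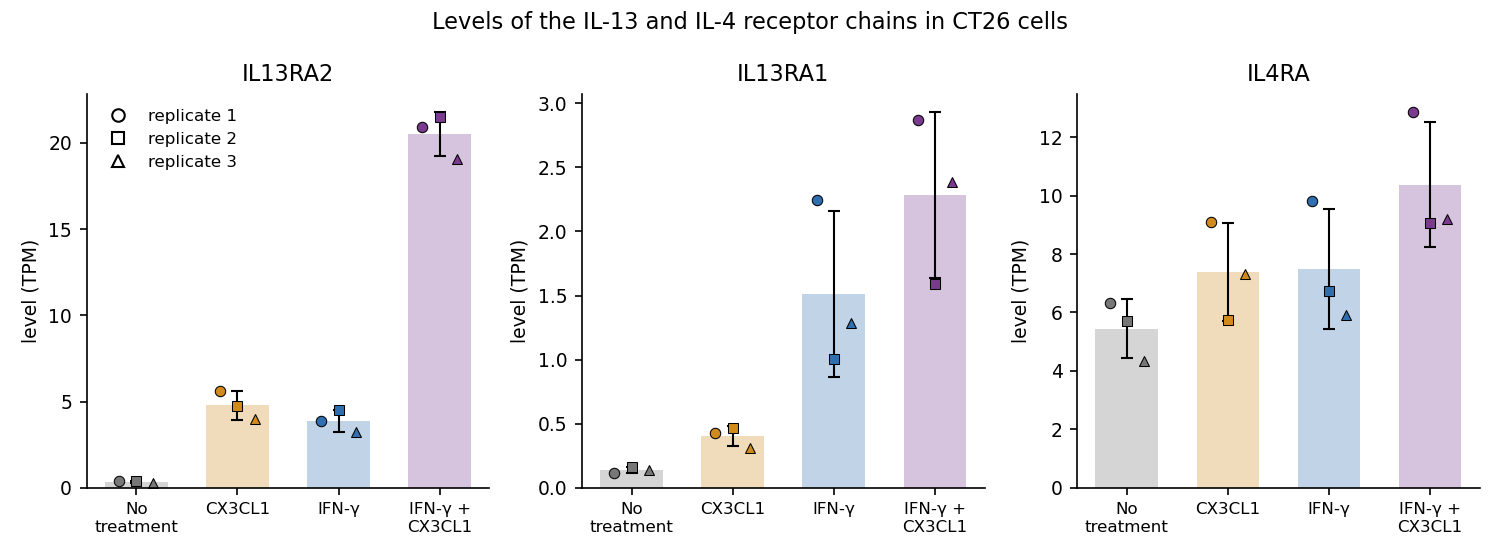
Level of each receptor chain in TPM in the 4 groups of CT26 libraries, with a separate axis for each gene that starts at 0. Bars are means of 3 libraries, error bars the SD and symbols the libraries; IL13RA2 averages 20.5 TPM with both agents against 0.354 TPM without treatment, and replicate 1 is the highest for IL4RA in every group.

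With CX3CL1 on top of IFN-γ, IL13RA2 was higher by 2.14 on the log2(TPM + 1) scale, and the mean TPM was 5.28 times as high. The 3 libraries with both agents did not overlap the 3 with IFN-γ alone. The share of all genes whose libraries separate in this way was not counted. Over all genes tested in that comparison, limma called 0.345% higher and 0.0168% lower at an adjusted p under 0.05, which is a different measure. With any 1 of the 6 libraries left out the IL13RA2 difference was 2.05 to 2.24.

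In CX3CL1 against no treatment the difference of IL13RA2 was 2.09 on the log2(TPM + 1) scale and the mean TPM was 13.5 times as high. With IFN-γ against no treatment the difference was 1.84 and the ratio of means 11.0. With IFN-γ + CX3CL1 against CX3CL1 it was 1.90 and the ratio 4.28. These comparisons share control libraries with one another, so their values stand side by side without a test of their likeness.

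How the agents combined on IL13RA2 depended on the scale. In TPM, CX3CL1 added 4.43 to the untreated mean and 16.6 to the mean with IFN-γ. The mean with both agents was 20.5 TPM, above the 8.31 TPM that the sum of the separate rises would give and below the 52.5 TPM that the product of the separate ratios would give. On the log2(TPM + 1) scale the interaction, the CX3CL1 effect in the presence of IFN-γ minus that in its absence, was 0.06. It was -1.04 when 0.1 was added to the TPM instead of 1.

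IL13RA1, the chain that first binds IL-13 in the signaling receptor, was the member with the lowest level in each of the 4 groups. Without treatment it was measured at 0.118, 0.161 and 0.135 TPM (0.138 ± 0.0214, SD, n = 3), and with CX3CL1 at 0.429, 0.464 and 0.312 TPM (0.402 ± 0.0797, SD, n = 3). With IFN-γ it was measured at 2.24, 1.01 and 1.29 TPM (1.51 ± 0.649, SD, n = 3), and with both agents at 2.87, 1.59 and 2.39 TPM (2.28 ± 0.645, SD, n = 3). The 6 libraries with IFN-γ lay above the 6 without it, and the libraries with IFN-γ alone and with both agents overlapped. How many of all genes separate in this way was not counted.

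IL13RA1 rose with IFN-γ, by 1.11 on the log2(TPM + 1) scale against no treatment (SE 0.17, adjusted p = 0.00129, limma), where the mean TPM was 11.0 times as high. It also rose when IFN-γ was added to CX3CL1, by 1.21 (SE 0.17, adjusted p = 0.0016, limma), where the mean was 5.68 times as high. Over all genes tested, 5.91% were called higher and 1.94% lower with IFN-γ against no treatment, and 3.76% and 0.935% with IFN-γ + CX3CL1 against CX3CL1. Because IL13RA1 passed the filter through its higher groups, the calls were also made with no filter, where they stood (adjusted p = 0.00532 and 0.00729, limma). Both calls also stood with any 1 of their 6 libraries left out. The differences were 0.912 to 1.26 and 1.08 to 1.37 in those fits.

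CX3CL1 gave no call on IL13RA1. Against no treatment the difference was 0.30 (95% interval -0.08 to 0.68, adjusted p = 0.850, limma), although the CX3CL1 and untreated libraries did not overlap and the mean TPM was 2.91 times as high. In that comparison 1.78% of all genes tested were called higher and 0.168% lower, and the share whose libraries did not overlap was not counted. A pseudocount of 1 weighs down differences between levels this far below 1 TPM, and with 0.1 the difference was 1.07, again not called. Against IFN-γ the difference was 0.40 (95% interval 0.02 to 0.78, adjusted p = 0.975, limma), and the libraries overlapped.

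IL4RA, the chain shared by the IL-4 and IL-13 receptors, had the highest level of the 3 without treatment and the smallest ratio of means in each of the 4 comparisons, 1.35 to 1.41. Untreated libraries held 6.32, 5.70 and 4.32 TPM (5.45 ± 1.02, SD, n = 3). With CX3CL1 it was measured at 9.08, 5.75 and 7.30 TPM (7.38 ± 1.67, SD, n = 3), and with IFN-γ at 9.83, 6.75 and 5.91 TPM (7.49 ± 2.06, SD, n = 3). With both agents it was measured at 12.9, 9.07 and 9.19 TPM (10.4 ± 2.15, SD, n = 3). The libraries with both agents lay above all untreated libraries, and every other pair of neighbouring groups in the order overlapped. How many of all genes separate so was not counted. Replicate 1 was the highest library in each group.

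None of the 4 comparisons called IL4RA. The difference was 0.37 with CX3CL1 (95% interval -0.07 to 0.81, adjusted p = 0.812, limma) and 0.43 with CX3CL1 on top of IFN-γ (95% interval -0.01 to 0.88, adjusted p = 0.975, limma). It was 0.38 with IFN-γ (95% interval -0.06 to 0.83, adjusted p = 0.299, limma) and 0.44 with IFN-γ on top of CX3CL1 (95% interval 0.00 to 0.89, adjusted p = 0.282, limma). With the replicate number as a block, IL4RA was called higher in both IFN-γ comparisons, with adjusted p = 0.0498 against no treatment and adjusted p = 0.0348 against CX3CL1 (limma), and the size of the differences was the same. In both of these comparisons libraries with the same number deviated together, as described in the methods. In the comparison of IFN-γ + CX3CL1 with IFN-γ, where they also did, the blocked adjusted p was 0.214.

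Whether CX3CL1 acted differently with and without IFN-γ was tested for the other two chains by the interaction. It was 0.10 for IL13RA1 (95% interval -0.44 to 0.63, adjusted p = 1.00, limma) and 0.06 for IL4RA (95% interval -0.57 to 0.69, adjusted p = 1.00, limma). Among all genes tested limma called 0 in the interaction, which is 0.0%, and 273 had an unadjusted p under 0.05. The number called rose with the replicate block, as given in the last section, and neither chain was called there.

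**Figure D2:**
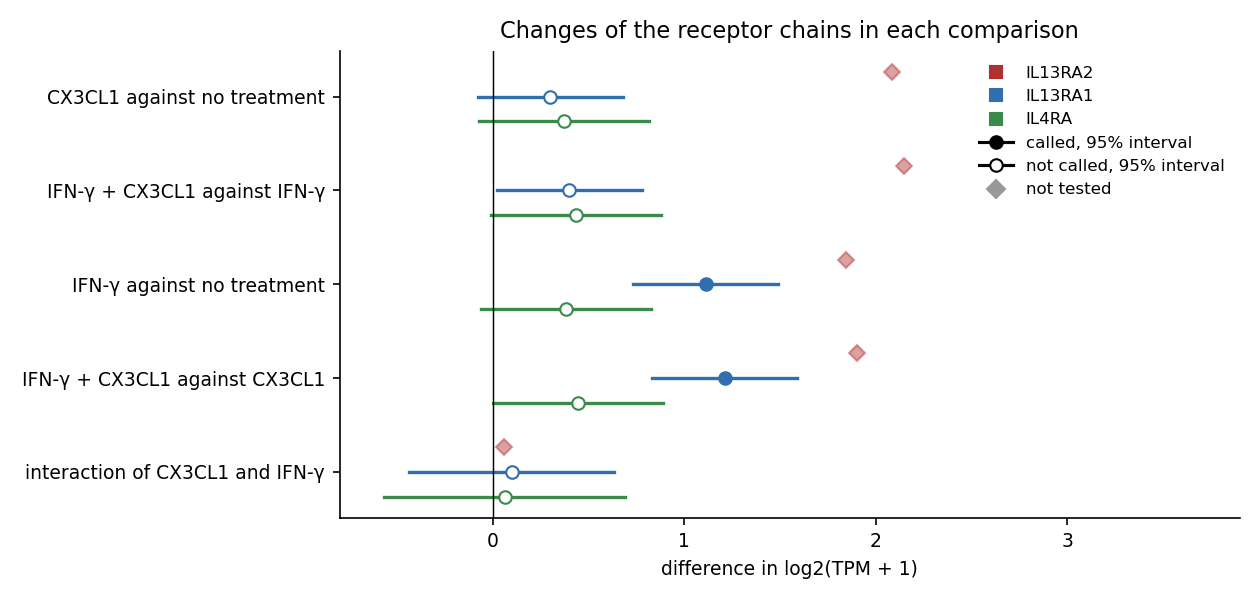
Difference in log2(TPM + 1) of each receptor chain in the 4 comparisons and the interaction, with 95% intervals from limma; filled circles passed an adjusted p of 0.05, open circles did not, and diamonds are the values of IL13RA2, which were not tested. IL13RA2 lies between 1.84 and 2.14 in all 4 comparisons, and IL13RA1 passes in the 2 IFN-γ comparisons.

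Because TPM is scaled for length, the chains can be set against one another within a library. IL13RA2 was above IL13RA1 in all 12 libraries. The ratio of IL13RA2 to IL13RA1 was 3.45, 2.26 and 2.15 without treatment and 13.1, 10.2 and 12.7 with CX3CL1. It was 1.73, 4.50 and 2.52 with IFN-γ and 7.28, 13.5 and 7.99 with both agents. The ratio was higher in the 6 libraries with CX3CL1 than in the 6 without it, and the untreated and IFN-γ libraries overlapped.

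Against IL4RA the decoy receptor was the lower transcript in all 9 libraries outside the combined treatment. The ratio of IL13RA2 to IL4RA was 0.0638 to 0.0671 without treatment, 0.545 to 0.825 with CX3CL1 and 0.395 to 0.670 with IFN-γ. With both agents it was 1.63, 2.37 and 2.07, so that IL13RA2 became the higher transcript in every library of that group. IL13RA2 made up 5.97% ± 0.135 (SD, n = 3) of the summed TPM of the 3 chains without treatment, 38.3% ± 4.59 with CX3CL1, 30.7% ± 6.25 with IFN-γ and 62.0% ± 4.90 with both. These ratios hold IL13RA2 and so carry no test.

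**Figure D3:**
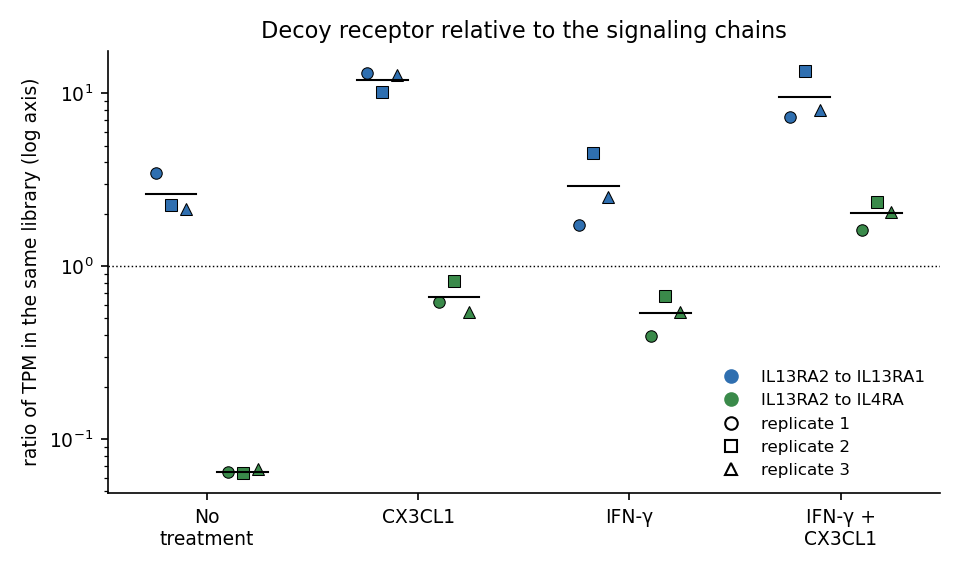
Ratio of IL13RA2 TPM to IL13RA1 TPM (blue) and to IL4RA TPM (green) within each library, on a log axis with a dotted line at a ratio of 1; horizontal bars are means of 3 libraries. The ratio to IL4RA passes 1 only with IFN-γ + CX3CL1, at 1.63 to 2.37.

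Both ligands, IL4 and IL13, were listed at 0 in all 12 libraries, and no fold is given for them. Of the 6 other type 2 cytokines and alarmins, IL9 and IL25 were also listed at 0 in every library and none passed the filter. IL33, the alarmin bound by IL1RL1, averaged 0.0333 TPM without treatment, 0.187 TPM with CX3CL1, 0.0467 TPM with IFN-γ and 0.148 TPM with both, and was not tested.

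Among 32 other chains of the class I cytokine receptor family, 26 were above 0 in at least 1 library and 9 passed the filter. With the 3 members, IL13RA2 ranked 10 of 35 chains by mean TPM without treatment, 6 of 35 with CX3CL1, 8 of 35 with IFN-γ and 3 of 35 with both agents. IL4RA ranked 5 of 35 without treatment and 6 of 35 with both, and IL13RA1 ranked 12 and 10.

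IL2RG, the common gamma chain that pairs with IL4RA in the type I receptor, rose with IFN-γ. Its mean was 2.05 ± 0.378 TPM without treatment, 3.10 ± 0.195 TPM with CX3CL1, 6.63 ± 1.13 TPM with IFN-γ and 6.95 ± 1.56 TPM with both (SD, n = 3). The difference with IFN-γ was 1.32 (SE 0.16, adjusted p = 0.000154, limma) and with IFN-γ on top of CX3CL1 0.93 (SE 0.16, adjusted p = 0.0047, limma). OSMR, the oncostatin M receptor chain, was the other called chain, higher by 0.79 with IFN-γ (adjusted p = 0.0287, limma) and by 1.39 with IFN-γ on top of CX3CL1 (adjusted p = 0.00159, limma). Its call against no treatment was lost without any 1 of no treatment replicates 1, 2 and 3 or IFN-γ replicates 1 and 3, with adjusted p up to 0.122. In the fit with the replicate block OSMR was also called with CX3CL1 on top of IFN-γ (difference 0.83, adjusted p = 0.185 without and 0.0303 with the block, limma), and CRLF2, the thymic stromal lymphopoietin receptor chain, with IFN-γ (adjusted p = 0.123 without and 0.0337 with the block, limma).
In both CX3CL1 comparisons limma called 0 of the 9 chains, and 2 of them against no treatment and 1 against IFN-γ had an unadjusted p under 0.05. The median difference of the 9 chains was 0.05 in each of these comparisons, beside -0.016 and -0.003 over all genes tested. With IFN-γ it was 0.17 against no treatment and 0.20 against CX3CL1, beside 0.03 and 0.04 over all genes tested.

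All 22 genes of signal transduction below IL-4 and IL-13 were above 0 in at least 1 library, and 20 passed the filter. STAT6, the transcription factor of the pathway, averaged 79.1 ± 3.61 TPM without treatment, 78.4 ± 2.65 TPM with CX3CL1, 89.3 ± 6.34 TPM with IFN-γ and 92.1 ± 12.5 TPM with both (SD, n = 3). The STAT6 differences were -0.01, 0.04, 0.17 and 0.22 for CX3CL1 alone, CX3CL1 on top of IFN-γ, IFN-γ alone and IFN-γ on top of CX3CL1, and none was called. In the same order, JAK1, which binds IL4RA, differed by 0.17, 0.17, 0.06 and 0.06, and JAK2 by 0.30, 0.59, -0.04 and 0.24. TYK2, which binds IL13RA1, differed by 0.37, 0.14, 0.40 and 0.17.
None of JAK1, JAK2 and TYK2 was called. JAK3, which binds the common gamma chain, averaged 5.06 TPM without treatment and 8.79 TPM with IFN-γ, a difference of 0.68 that just missed the threshold (adjusted p = 0.0510, limma), and differed by 0.64 with IFN-γ on top of CX3CL1 (adjusted p = 0.0870, limma). In the fit with the replicate block both JAK3 differences were called (adjusted p = 0.00215 and 0.00444, limma), and so was that of TYK2 with IFN-γ (adjusted p = 0.0227, limma).

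STAT3, which the IL-6 family activates, rose with IFN-γ by 0.80 (SE 0.16, adjusted p = 0.00887, limma) and with IFN-γ on top of CX3CL1 by 0.75 (adjusted p = 0.0200, limma). The second call was lost without any 1 of CX3CL1 replicates 2 and 3 or IFN-γ + CX3CL1 replicates 1 and 3, with adjusted p up to 0.0985. SOCS1, a feedback inhibitor of JAK kinases, averaged 11.0 TPM without treatment and 23.1 TPM with IFN-γ, and its rise of 0.97 was called (adjusted p = 0.0327, limma) but lost without any 1 of the 3 untreated libraries or IFN-γ replicate 3, with adjusted p up to 0.146. SOCS1 was called with IFN-γ on top of CX3CL1 only with the replicate block (difference 0.60, adjusted p = 0.232 without and 0.00939 with it, limma). SOCS3, the inhibitor that dampens IL-6 family signals, rose by 1.10 with IFN-γ on top of CX3CL1 (SE 0.20, adjusted p = 0.00748, limma).
Limma called 0 of these 20 genes in either CX3CL1 comparison, where 1 and 2 had an unadjusted p under 0.05. The median difference of the 20 genes was 0.05 in both CX3CL1 comparisons, 0.07 with IFN-γ and 0.14 with IFN-γ on top of CX3CL1.

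Of 26 genes known as targets of IL-4 and IL-13 in macrophages or epithelium, 6 were listed at 0 in all libraries, the macrophage genes ARG1, RETNLA and CHIL3 among them, and 6 passed the filter. MRC1, the mannose receptor that marks alternatively activated macrophages, rose with CX3CL1 by 1.25 (SE 0.27, adjusted p = 0.0330, limma), from 0.687 ± 0.0988 to 3.14 ± 1.33 TPM (SD, n = 3). This call was lost without any 1 of the 3 untreated libraries or CX3CL1 replicates 2 and 3, with adjusted p up to 0.160. CCL17, a chemokine that attracts type 2 helper T cells, averaged 3.01 ± 1.44 TPM without treatment, 12.8 ± 6.62 TPM with CX3CL1, 0.520 ± 0.609 TPM with IFN-γ and 2.40 ± 2.45 TPM with both (SD, n = 3). With CX3CL1 against no treatment, groups not treated as paired, CCL17 differed by 1.71. It was called there only with the replicate block (adjusted p = 0.131 without and 0.000778 with it, limma). CCL17 fell by 2.11 with IFN-γ on top of CX3CL1 (SE 0.48, adjusted p = 0.0251, limma). That call was lost without any 1 of CX3CL1 replicates 1 and 3 or IFN-γ + CX3CL1 replicates 2 and 3, with adjusted p up to 0.113.
IGF1, an insulin-like growth factor, fell by 0.55 with IFN-γ (adjusted p = 0.0192, limma). It averaged 0.556 TPM without treatment, 0.244 TPM with CX3CL1, 0.0469 TPM with IFN-γ and 0.0279 TPM with both. IGF1 thus passed the filter only through the groups without IFN-γ, and with no filter its call stood (adjusted p = 0.0239, limma). The call was lost without any 1 of no treatment replicates 1 and 3 or IFN-γ replicates 2 and 3, with adjusted p up to 0.0727. With the replicate block, MRC1 (0.80, adjusted p = 0.0123, limma) and CCL17 (-1.41, adjusted p = 0.00111, limma) were also called with IFN-γ against no treatment, as were TGM2, a transglutaminase, and FN1, fibronectin, in both IFN-γ comparisons (TGM2 0.96 and 0.83, FN1 -0.40 and -0.35). The median difference of the 6 genes was 0.08 and 0.07 with CX3CL1 and -0.01 and 0.07 with IFN-γ, in the same order of comparisons as for STAT6.

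Of 7 listed partners of IL13RA2, 6 were in the table. TMEM219, a membrane protein described as a co-receptor of IL13RA2, averaged 24.2, 23.2, 25.0 and 22.5 TPM in the groups with no treatment, CX3CL1, IFN-γ and both, with differences between -0.15 and 0.05 that were not called. MMP8, a protease that can cut IL13RA2 from the cell surface, was listed at 0 in all libraries. Limma called 0 of the 4 partners that passed the filter in each of the 4 comparisons. An unadjusted p under 0.05 was found for 1 of them against no treatment with either agent and for 0 in the other comparisons. TGFB1, a growth factor linked to signaling through IL13RA2, was called only with the replicate block. With IFN-γ against no treatment its difference was 0.61 (adjusted p = 0.0705 without and 0.0021 with the block, limma). With CX3CL1 against no treatment, groups not treated as paired, its difference was also 0.61 (adjusted p = 0.188 without and 0.00537 with the block, limma).

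Other decoy receptors and soluble antagonists were set beside IL13RA2, which was itself chosen for its rise. This list was drawn up with earlier results of these data known, so its counts are a description. Of 16 others, 9 passed the filter, and limma called 2 higher with CX3CL1, 0 with CX3CL1 on top of IFN-γ (3 had an unadjusted p under 0.05), and 5 higher in each of the IFN-γ comparisons, with none lower. Over all genes tested, the shares called higher were 1.78%, 0.345%, 5.91% and 3.76%. IL1RL1, the IL-33 receptor whose soluble form is a decoy, averaged 45.5 ± 14.1 TPM without treatment, 113 ± 8.34 TPM with CX3CL1, 240 ± 39.2 TPM with IFN-γ and 394 ± 65.4 TPM with both (SD, n = 3). IL1RL1 rose by 1.34 with CX3CL1 (SE 0.20, adjusted p = 0.00246, limma), by 2.40 with IFN-γ (adjusted p = 7.64e-06, limma) and by 1.78 with IFN-γ on top of CX3CL1 (adjusted p = 0.000305, limma), and these calls stood with any 1 library left out. Values per gene do not separate its soluble form from its membrane form.
IL18BP, the soluble antagonist of IL-18, rose by 2.22 with IFN-γ (SE 0.21, adjusted p = 2.16e-05, limma) and by 2.46 with IFN-γ on top of CX3CL1 (adjusted p = 7.72e-05, limma), and its difference with CX3CL1 was -0.14. ACKR3, a chemokine-scavenging receptor, rose by 0.78 with CX3CL1 (adjusted p = 0.0093, limma), by 0.73 with IFN-γ (adjusted p = 0.00588, limma) and by 0.57 with IFN-γ on top of CX3CL1 (adjusted p = 0.0366, limma). The ACKR3 call with CX3CL1 was lost without no treatment replicate 2 or 3, with adjusted p up to 0.0619, and that with IFN-γ on top of CX3CL1 without CX3CL1 replicate 3 or any 1 library with both agents, with adjusted p up to 0.134. ACKR3 was also called with CX3CL1 on top of IFN-γ when the replicate block was fitted (difference 0.62, adjusted p = 0.145 without and 0.0287 with it, limma).
CCRL2, an atypical receptor that binds chemerin, rose by 1.42 with IFN-γ (adjusted p = 0.0192, limma), a call lost without no treatment replicate 2 or 3 or IFN-γ replicate 3 (adjusted p up to 0.0811), and by 1.58 with IFN-γ on top of CX3CL1 (adjusted p = 0.0159, limma). CCRL2 averaged 0.0455 TPM without treatment and 0.127 TPM with CX3CL1, so it passed the filter only through the IFN-γ groups, and with no filter both calls were lost (adjusted p = 0.0562 and 0.0521). TNFRSF23, a mouse decoy receptor for the death ligand TRAIL, rose by 0.99 with IFN-γ (adjusted p = 0.0169, limma) and by 0.87 with IFN-γ on top of CX3CL1 (adjusted p = 0.0484, limma). The first TNFRSF23 call was lost without no treatment replicate 2 or 3 or IFN-γ replicate 1 (adjusted p up to 0.0804), and the second without any 1 of the CX3CL1 libraries or IFN-γ + CX3CL1 replicates 1 and 3 (adjusted p up to 0.179). TNFRSF22, a related decoy receptor, was called with IFN-γ against no treatment only with the replicate block (difference 0.48, adjusted p = 0.191 without and 0.0256 with it, limma). TNFRSF11B, of the same list, was called lower with CX3CL1 only with the block (difference -0.45, adjusted p = 0.0753 without and 0.0373 with it, limma), in groups not treated as paired. The median difference of the 9 genes was 0.23, 0.15, 0.73 and 0.57 in the order used for STAT6, beside -0.016, -0.003, 0.03 and 0.04 over all genes tested.

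Over all lists around the receptors, 48 genes passed the filter. Limma called 3 of them with CX3CL1, 0 with CX3CL1 on top of IFN-γ and 10 in each of the IFN-γ comparisons, and 7 had an unadjusted p under 0.05 in the comparison with 0. Once the replicate block was fitted the counts were 2 with CX3CL1 on top of IFN-γ and 19 with IFN-γ against no treatment. That blocked fit called 95 and 1929 of all 11878 genes tested in these comparisons. In the fit with no block, the shares of all genes tested that were called higher and lower were 1.78% and 0.168%, 0.345% and 0.0168%, 5.91% and 1.94%, and 3.76% and 0.935%, in the order used for STAT6. With no filter on low values, calls were also lost for OSMR (adjusted p = 0.0607), SOCS1 (0.0825) and TNFRSF23 (just over the threshold) with IFN-γ, for MRC1 (0.111) with CX3CL1, and for CCL17 (0.0753), TNFRSF23 (0.107) and ACKR3 (0.0688) with IFN-γ on top of CX3CL1. The ACKR3 call with CX3CL1 was lost with only the libraries compared (adjusted p = 0.0654, limma). So were those of CCL17, TNFRSF23 and ACKR3 with IFN-γ on top of CX3CL1. In that comparison the CCL17 call was also lost with a pseudocount of 0.1, and the TNFRSF23 call with no intensity trend. The SOCS1 call with IFN-γ was also lost under median-ratio scaling and under quantile normalization.

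**Figure D4:**
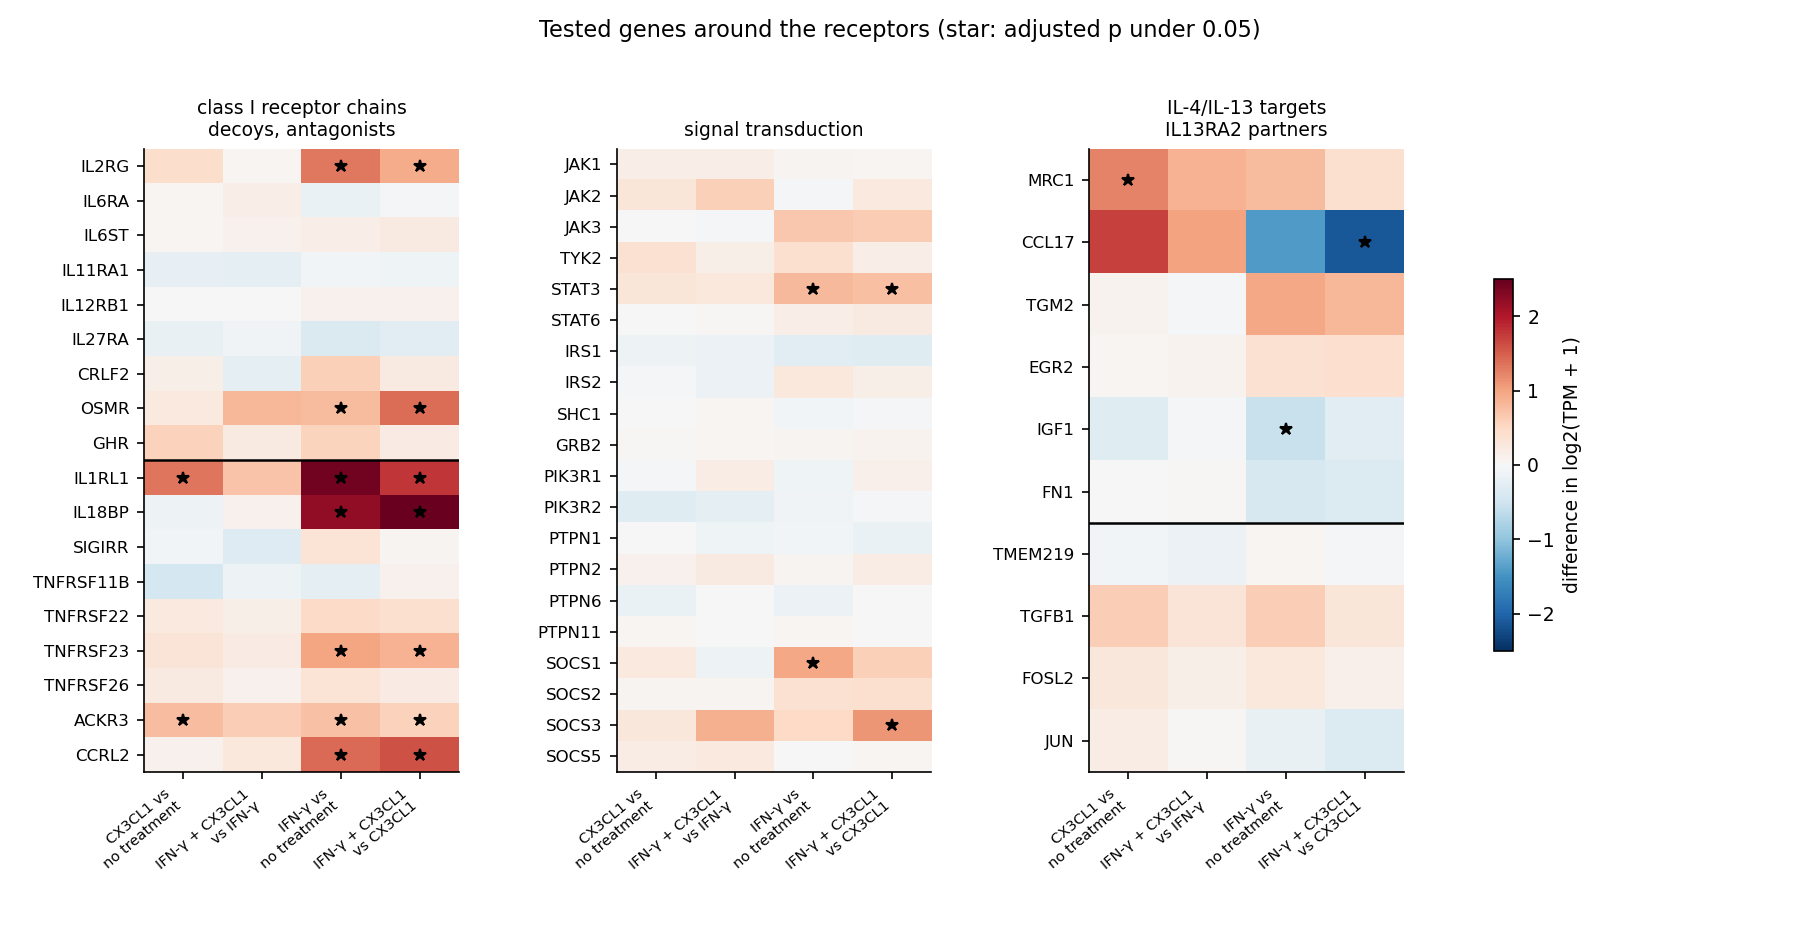
Difference in log2(TPM + 1) of the 48 tested genes around the receptors (rows) in the 4 comparisons (columns), red where higher and blue where lower; stars mark an adjusted p under 0.05 in limma. The stars lie mostly in the IFN-γ columns, 10 in each, and the column of IFN-γ + CX3CL1 against IFN-γ holds 0.

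The genes whose log2(TPM + 1) was most like that of IL13RA2 over the 12 libraries were PPBP, ACKR3, MMP13, SLPI and CCL20, with Pearson's r of 0.970, 0.969, 0.960, 0.959 and 0.959. PPBP and CCL20 are chemokines, MMP13 is a collagenase and SLPI is a secreted protease inhibitor. All had their lowest mean without treatment and their highest with both agents. CCL20 went from 0.221 to 19.3 TPM between these groups, MMP13 from 1.43 to 22.3 TPM and SLPI from 1.46 to 18.6 TPM. The 12 points share their 4 groups, so r mostly reflects the group means.

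Among the genes most like IL13RA1 were CEBPB (r = 0.976), STARD5 (0.970), CTSS (0.970) and ABI3BP (0.968). CEBPB, a C/EBP transcription factor, averaged 65.2 TPM without treatment and 152 TPM with both agents. CTSS, the lysosomal protease cathepsin S, averaged 0.0581 TPM without treatment, 0.0507 TPM with CX3CL1 and 1.04 TPM with IFN-γ. IL4RA was most like MOCS1 (0.956), TSKU (0.943), AMPD3 (0.941), ABR (0.935) and ARNT2 (0.929). AMPD3, an AMP deaminase, averaged 3.76 TPM without treatment and 20.1 ± 12.6 TPM with both agents (SD, n = 3). Among the members, r was 0.804 between IL13RA2 and IL13RA1, 0.796 between IL13RA2 and IL4RA and 0.772 between IL13RA1 and IL4RA over the 12 libraries.

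**Figure D5:**
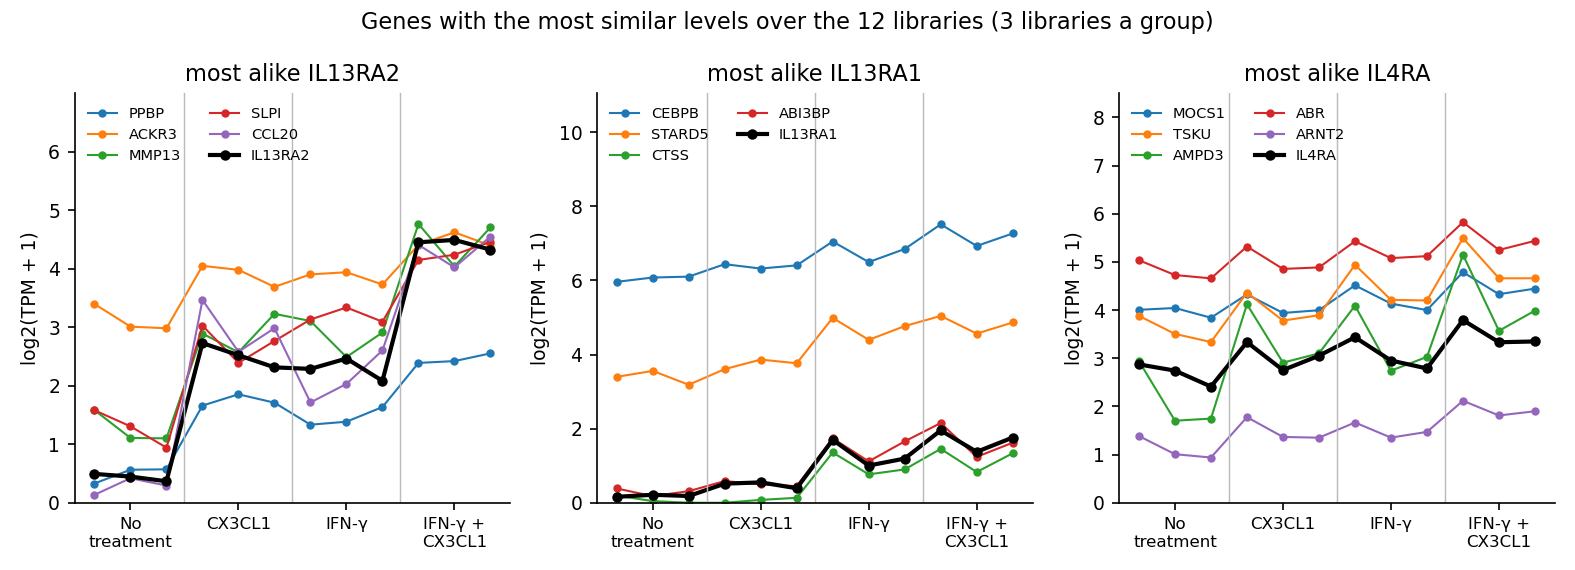
Level as log2(TPM + 1) of each receptor chain (black) and of the genes named as most alike over the 12 libraries; lines only join the 3 libraries of each group and the groups for the eye. The genes beside IL13RA2 are lowest without treatment and highest with both agents, and those beside IL13RA1 are higher in the 6 libraries with IFN-γ.

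None of the neighbouring genes that passed the filter was called. On chromosome X, the nearest protein-coding gene below IL13RA2 was HTR2C, a serotonin receptor, which was listed at 0 in the 3 groups other than IFN-γ + CX3CL1 and did not pass the filter, and the annotated gene above it is not in the table. Beside IL13RA1, DOCK11, a guanine nucleotide exchange factor 35548 bases away, averaged 25.5, 28.6, 24.5 and 25.9 TPM in the 4 groups and differed by 0.15, 0.08, -0.05 and -0.12, with none called. ZCCHC12, on the other side, was listed at 0 in all libraries. Beside IL4RA, NSMCE1, a subunit of the SMC5-SMC6 complex, averaged between 71.2 and 77.5 TPM and was not called. IL21R, a cytokine receptor chain 23955 bases from IL4RA, averaged at most 0.0181 TPM and did not pass the filter.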

How the data were processed

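Poly(A) RNA of 12 CT26 libraries was sequenced with a strand-specific kit. Per the labels, the submitters' processing notes name STAR 2.7.3a, DESeq2 1.22.1 and build mm10. The authors deposited 1 table of TPM per gene symbol, with each library summing to 1000000, so the depth of each library is unknown and no counting interval is given. No table of counts was used here, so the DESeq2 test of the study's methods was not repeated. Of 23636 symbols, 6747 held only zeros, 26 appeared as dates and 2 names occurred more than once.

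The 11878 genes that averaged 0.2 TPM or more across the 12 libraries were tested on log2(TPM + 1) with limma 3.58.1 in R 4.3.3 (lmFit, eBayes with an intensity trend). All libraries entered the fit with no block, and p-values were adjusted by the Benjamini-Hochberg method over all genes tested, with a threshold of 0.05. Differences on this scale understate the change of genes of low level. The fit was tested on simulated data. A test of IL13RA2 with CX3CL1 on top of IFN-γ was planned and is not reported, because the gene was chosen by its rise with CX3CL1. The members and the gene lists were chosen with earlier results of these data known. Apart from the cell type markers and the checks of the labels, listed genes are named where called (at most 4 per list and comparison, largest first), or where they are a ligand, JAK1, JAK2, JAK3, TYK2, STAT6, IL2RG, TMEM219 or MMP8. Other listed genes except IL33 are named only where the replicate block changed their call or a count or rule turned on them. IL33 is named because IL1RL1 binds it. These genes were named after their values were seen. Genes most alike are the 5 with the highest Pearson correlation, of which 1 is not reported here, and neighbours are the nearest protein-coding genes of GENCODE vM21.

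Libraries with the same replicate number deviated together from their group means in IFN-γ and IFN-γ + CX3CL1 (correlation 0.630 to 0.649), no treatment and IFN-γ (0.220 to 0.460) and CX3CL1 and IFN-γ + CX3CL1 (0.351 to 0.428). These comparisons were therefore treated as paired by number in a second, blocked fit, whose values stand beside results that they change. Intervals, counts, shares over all genes and figures come from the fit with no block unless stated otherwise. What a number shares is not given in the sources used here. For no treatment and CX3CL1 the correlations were 0.005 to 0.387, and these were not treated as paired. Blocked values are still given there for listed genes whose call they change.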

Additional observations from a re-analysis of the deposited data

How the results depend on the processing

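The log2 fold changes of the members were recomputed 117 times under other settings and 108 times with 1 library left out. No call of IL13RA1 was lost, and 110 and 108 of these values kept their side of the threshold or moved by less than 1 SD. Of 120 recomputed values that were not called, 7 changed sign, all of them in the interaction. In the comparisons of groups, IL13RA1 and IL4RA were higher under every setting. With a pseudocount of 0.1, IL13RA2 differed by 3.42 with CX3CL1, 2.38 with CX3CL1 on top of IFN-γ, 3.13 with IFN-γ, 2.09 with IFN-γ on top of CX3CL1 and -1.04 in the interaction, and IL13RA1 by 1.07, 0.60, 2.69, 2.22 and -0.47 in the same order with the same calls, since 1 TPM is large beside their untreated levels. With the replicate block IL4RA was called with IFN-γ (0.38) and with IFN-γ on top of CX3CL1 (0.44), and no call of IL13RA1 changed. Numbers of genes called are given below in the order CX3CL1 alone, CX3CL1 on top of IFN-γ, IFN-γ alone and IFN-γ on top of CX3CL1, then the interaction. They were 232, 43, 932, 558 and 0. Under the replicate block they were 455, 95, 1929, 1369 and 52. With a log2 fold change of at least 1 as well, the first 4 were 143, 24, 331 and 230. For CX3CL1 on top of IFN-γ 28 were called with no filter and 20 with only the libraries compared, with which 344 were called for IFN-γ on top of CX3CL1. Quantile normalization called 1 in the interaction. Leaving out 1 library gave 152 to 268, 16 to 54, 530 to 764, 270 to 668 and 0 to 11. Of the listed pathway genes, 3, 0, 10, 10 and 0 were called. With the replicate block 6, 2 and 19 were called in the first 3 comparisons. With CX3CL1 on top of IFN-γ, 1 was called under median-ratio scaling and 1 under quantile normalization. With IFN-γ against no treatment 16 were called with only the libraries compared, and 4 with a log2 fold change of at least 1 as well, which left 6 for IFN-γ on top of CX3CL1. Leaving out 1 library gave 1 to 3, 0 to 1, 5 to 10 and 6 to 9. Fits with 1 library left out have fewer samples; otherwise the cause was not tested. Of the 5 genes most alike, 2 for IL13RA2 and 1 for IL13RA1 were again among the 5 with a pseudocount of 0.1.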
